A study of Mus musculus with 10 samples.

Results

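The 10 genes described here encode the proteins that carry a bacterial signal from the Toll-like receptors (TLRs) at the cell surface to the first kinases inside the cell. They are the lipopolysaccharide (LPS) co-receptor genes Cd14 and Ly96, the adaptor genes Myd88, Ticam1, Ticam2 and Tirap, and the IRAK kinase genes Irak1, Irak2, Irak3 and Irak4. They were chosen by name from 34745 genes in the deposited table. All 10 members had a single row there, and all passed the filter on low counts, as did 12264 genes in total.

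Polyadenylated RNA was sequenced from cells collected by peritoneal lavage of septic mice. Every mouse had cecal ligation and puncture (CLP), in which gut bacteria leak into the peritoneum, so the libraries hold no healthy reference. Of the 10 libraries, 5 carry the label AX, read as amlexanox, and 5 the label NC, read as vehicle, because the series compares these treatments without spelling out either abbreviation. Amlexanox, an anti-inflammatory drug, blocks TBK1 and the related kinase IKKε. Strain, age, dose, time of sampling and whether each library came from 1 animal or a pool are not stated in the labels. P-values therefore measure the spread between libraries, part of which may be technical if animals were shared or pooled.

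LPS of Gram-negative bacteria is handed by CD14 to the receptor complex of TLR4 and MD-2, the product of Ly96. TIRAP then brings MyD88 to the receptor, and MyD88 gathers IRAK4, IRAK1 and IRAK2 into a signalling complex that activates NF-κB and inflammatory genes. After the receptor is taken into the cell, TRAM (Ticam2) links it to TRIF (Ticam1), the arm that activates TBK1 and the interferon genes. IRAK3, also called IRAK-M, lacks strong kinase activity and is known mainly from macrophages and monocytes as a brake on this pathway.

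Total counts ran from 10221170 to 13806885 per library. Neutrophil markers summed to 7376 to 13898 CPM (counts scaled to the effective library size) in NC and 6708 to 12843 CPM in AX, all 14 passed the filter, and monocyte markers summed to 1483 to 3572 and 1048 to 3474 CPM, so the labelled leukocytes were present. Large peritoneal macrophage markers summed to 128 to 328 CPM in NC and 174 to 463 CPM in AX. Vsig4 was at 0 in 6 libraries, while Adgre1 reached 135 CPM in NC 4. T cell markers did not exceed 16.2 CPM in sum. Such sums depend on the genes listed and do not rank cell types. Fitted values were higher in AX for 9 of 11 tested macrophage markers and 4 of 14 neutrophil markers, against 53.6% of all genes tested. In either list 0 had an adjusted p under 0.05. Markers of the mesothelial lining were highest in AX 6 (1878 CPM) and next in NC 1 (654 CPM), against 85.2 to 278 CPM in the other libraries. In such bulk RNA, fewer cells of a type and less RNA per cell cannot be told apart.

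Across the transcriptome, 0 of 12264 genes (0%) passed an adjusted p of 0.05 between AX and NC in edgeR's quasi-likelihood test, and 113 genes (0.921%) had an unadjusted p under 0.05; DESeq2 also called 0, with 193 genes at an unadjusted p under 0.05. None of the 10 members passed the adjusted threshold, none had an unadjusted p under 0.05, and the groups overlapped for every one of them, where 17 genes (0.139%) did not overlap. Fitted values were lower in AX for 7 members and higher for 3, and their median log2 fold change was -0.13. Of all genes tested 46.4% were lower, and the median was 0.02. The adjusted p was 1.0 for each member (edgeR, Benjamini-Hochberg over all genes tested). These fits do not show that the members were equal in the 2 groups, since their 95% intervals allow changes that differ widely in size from gene to gene.

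**Figure D1:**
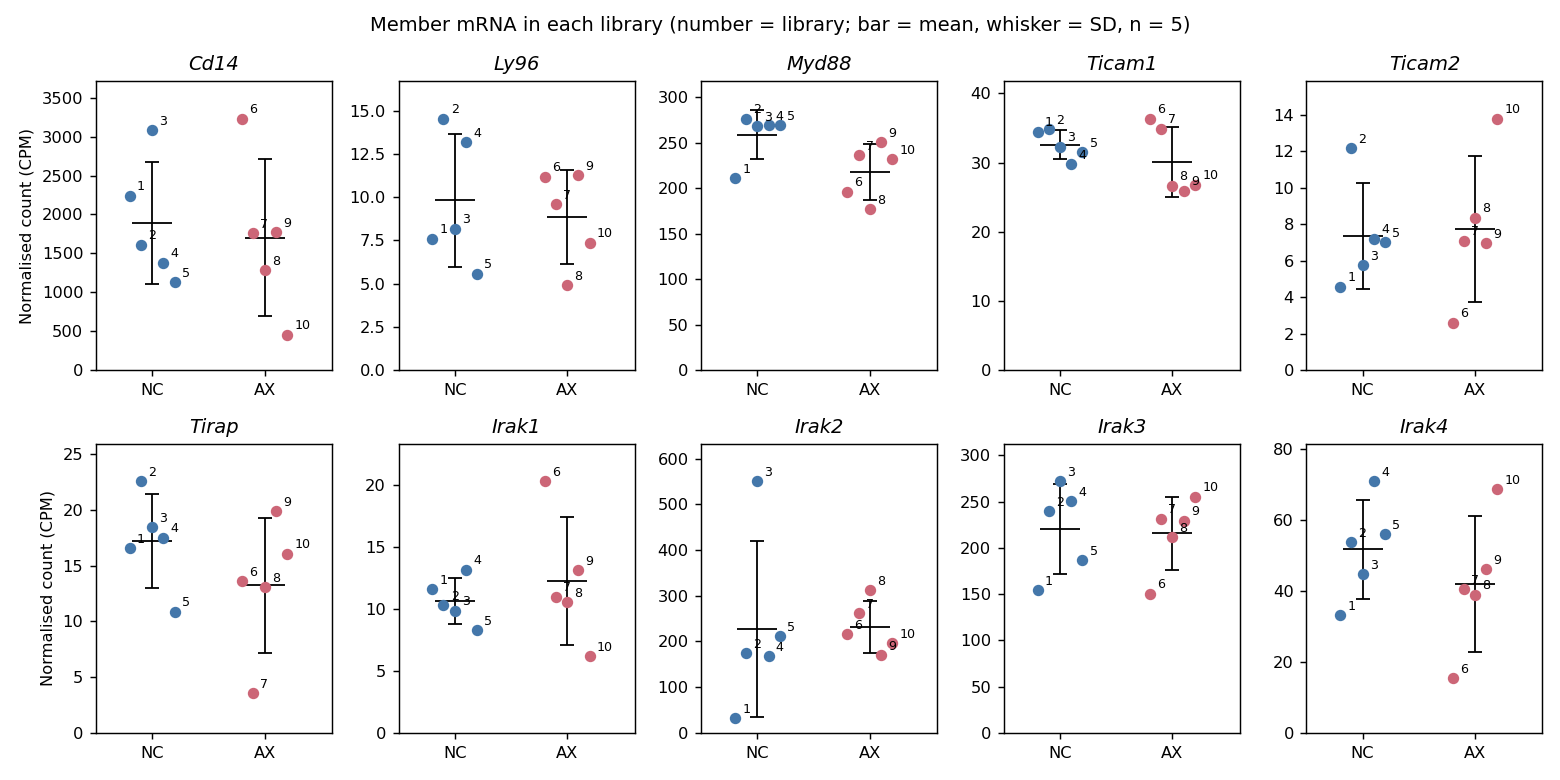
Normalised count (CPM) of each member in the 5 NC and 5 AX libraries; numbers are library numbers, the horizontal bar is the group mean and the whisker its SD. The groups overlap in all 10 panels, Myd88 and Ticam1 vary least between libraries, and NC 1 and NC 3 lie at opposite ends for Irak2.

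Levels are compared between genes as CPM per kilobase of merged exons (GENCODE M21), because longer transcripts give more reads. On this scale Cd14 stood far above the rest, at 1036 ± 495 (SD, n = 10), and its lowest library, 263, was still above the highest of Myd88, 107. Myd88 followed at 92.5 ± 13.4, above Irak3 in 10 of 10 libraries. Irak3 at 59.3 ± 11.4 and Irak2 at 51.9 ± 30.4 did not differ beyond their spread, Irak3 being the higher in 7 of 10 libraries. A middle group held Ticam1 at 10.5 ± 1.3, Irak4 at 9.32 ± 3.30 and Ly96 at 9.15 ± 3.12, whose order changed from library to library. For comparison, Tlr4, the receptor itself, stood at 12.01 ± 2.26.

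Tirap at 3.09 ± 1.08, Irak1 at 2.42 ± 0.796 and Ticam2 at 1.3 ± 0.571 were the lowest. With merged exons as the length, every library of Ly96 lay above every library of Tirap. The place of Irak1 depended on the gene length used. The FPKM values deposited by the authors imply a length of 13097 bases for Irak1, more than the 10005 bases its locus spans in the same table and 2.78 times its merged exons of 4716 bases. On that scale Irak1 was last, at 0.874 ± 0.279 FPKM, below Ticam2 at 1.89 ± 0.869 FPKM. The ranges of Ly96 and Tirap overlapped there, with Ly96 at 2.68 FPKM in AX 8 and Tirap at 3.14 FPKM in NC 2. Of 14169 genes with at least 10 counts in a library, 878 (6.20%) likewise had an implied length beyond their locus. With the longest principal transcript in place of merged exons, Irak2 moved above Irak3, and Irak4 and Ly96 above Ticam1. Those differences are of scale between genes and do not touch the comparison of AX with NC within a gene.

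**Figure D2:**
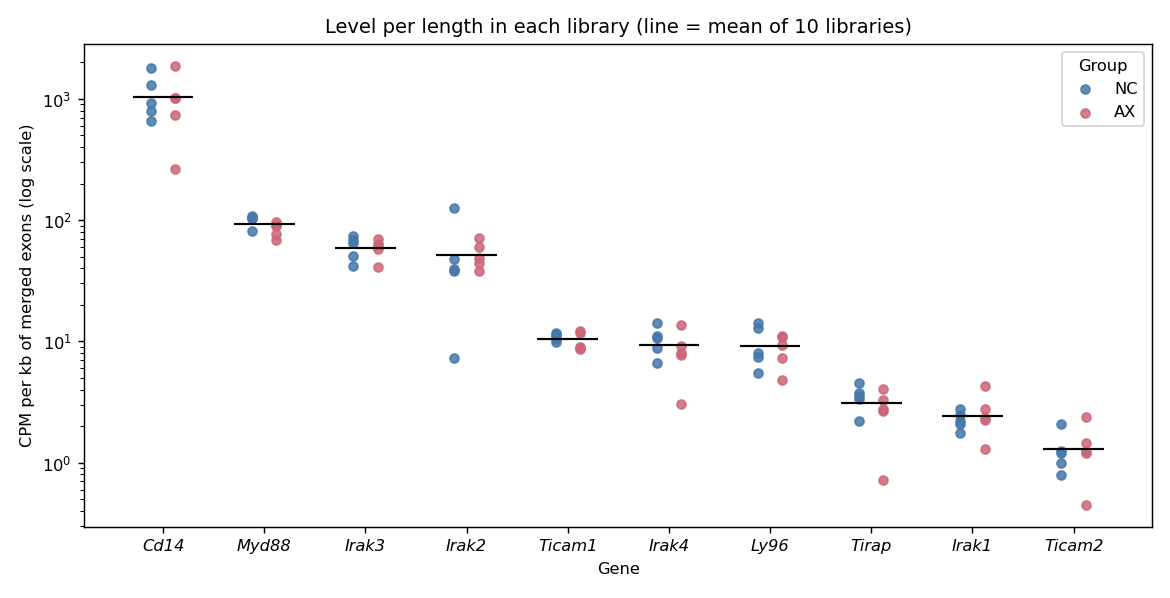
CPM per kilobase of merged exons on a log axis for each member, with the NC and AX libraries as points and the mean of 10 libraries as a line. Cd14 averages 1036, Myd88 92.5, and Ticam2 only 1.3, and within each gene the groups overlap.

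Cd14, which encodes the LPS-binding protein on the surface of monocytes, macrophages and neutrophils, varied 7.09-fold between libraries, and the groups did not differ beyond that spread. The gene lies on chromosome 18 from 36725074 to 36726736 of mm10. NC 1 to NC 5 held 2244, 1613, 3080, 1383 and 1131 CPM, and AX 6 to AX 10 held 3229, 1763, 1282, 1769 and 455 CPM. The highest and the lowest library were thus both AX, and 4 of 5 AX values lay inside or above the NC range. The log2 fold change was -0.15 ± 0.45 (SE), with a 95% interval from -1.15 to 0.84. Exact permutation of the group means of log2 CPM (two-sided) gave p = 0.635 (n = 5 each). The sign turned without NC 3 or without AX 10, both at 0.09. With limma it was -0.32 (voom) and -0.37 (log2 FPKM + 1 or + 0.1), and with the large peritoneal macrophage list as covariate it was 0.02.

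A set of 7 immediate early and stress genes (Fos, Jun, Egr1, Hspa1a, Hspa1b, Atf3 and Dusp1) had its highest sums in the same libraries as Cd14, 7431 CPM in AX 6 and 5845 CPM in NC 3. Its lowest sums, 2291 CPM in NC 5 and 2320 CPM in AX 10, also fell on the libraries lowest for Cd14. The group ranges were 2291 to 5845 CPM in NC and 2320 to 7431 CPM in AX, none of the 7 was at 0, all 7 had a higher fitted value in AX, and 0 passed. Dusp1 and Egr1 made up most of these sums, whereas Hspa1a and Hspa1b were highest in AX 10, at 98.7 and 101 CPM. Their part in the level of Cd14 was not tested.

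Ly96 encodes MD-2, the small secreted protein that holds LPS against TLR4, and lies on chromosome 1 from 16688051 to 16709611. It was a low-abundance transcript, with 47 to 227 counts per library. NC values were 7.60, 14.5, 8.19, 13.2 and 5.57 CPM and AX values 11.2, 9.61, 4.91, 11.3 and 7.38 CPM, which interleave. Its log2 fold change was -0.15 ± 0.33 (SE) and the exact permutation p was 0.738 (n = 5 each). Without NC 2 it was 0.04 and without AX 8 it was 0.0025. Per length, Cd14 exceeded Ly96 by 36.3-fold in AX 10 and by up to 222-fold in NC 3, whereas Tlr4 and Ly96 stayed within 0.953 to 2.07 of each other. The log2 ratio of Cd14 to Ly96 counts was 7.58 ± 0.82 in NC and 7.38 ± 0.88 in AX (exact permutation p = 0.722, adjusted over 5 ratios 0.722, n = 5 each). That difference of -0.20 turned to 0.05 without NC 3 and to 0.17 without AX 10.

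Among the adaptors, Myd88 made up most of the message. It took 83.2% to 88.2% of the summed level per length of the 4 adaptors, Ticam1 7.80% to 13.3%, Tirap 0.686% to 3.64% and Ticam2 0.491% to 2.28%. These shares are ratios between transcripts and say nothing of protein amounts.

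Myd88, on chromosome 9 from 119335934 to 119341411, serves all Toll-like receptors but TLR3, and the IL-1 and IL-18 receptors as well. It stood at 211, 276, 268, 269 and 269 CPM in NC 1 to NC 5 and at 196, 236, 177, 251 and 232 CPM in AX 6 to AX 10. All 5 AX values lay below the 4 highest NC values, and only NC 1 fell within the AX range. The means were 259 ± 27.0 CPM in NC and 218 ± 30.7 CPM in AX. This gave a log2 fold change of -0.25 ± 0.16 (SE), with an interval from -0.59 to 0.10, the smallest p of the members (0.142 unadjusted; adjusted p = 1.0 with edgeR). The exact permutation test gave p = 0.0873 (n = 5 each), where the smallest possible is 0.00794. Leaving out single libraries kept the value between -0.31 and -0.18. Of its merged exons 11.3% overlap Acaa1a on the other strand, and whether counting used the strand is not known.

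Ticam1, which encodes TRIF and lies on chromosome 17 from 56269319 to 56276786, was the steadiest member. NC libraries held 34.5, 34.8, 32.3, 29.8 and 31.5 CPM. AX libraries held 36.3, 34.9, 26.6, 25.9 and 26.8 CPM. Thus AX 8, AX 9 and AX 10 lay below all NC values, and AX 6 and AX 7 above them. AX 7 did so only narrowly, at 34.89 CPM against 34.84 CPM in NC 2. Its log2 fold change was -0.11 ± 0.16 (SE), from -0.47 to 0.24, and the exact permutation p was 0.310 (n = 5 each). From lowest to highest library Ticam1 spanned 1.40-fold and Myd88 1.56-fold. The SD of log2 CPM over the 10 libraries, 0.18 for Ticam1 and 0.22 for Myd88, lay at percentiles 3.36 and 7.33 among all genes tested. The log2 ratio of Myd88 to Ticam1, the entry points of the NF-κB and interferon arms, was 2.98 ± 0.22 in NC and 2.86 ± 0.33 in AX (exact permutation p = 0.492, adjusted over 5 ratios 0.722, n = 5 each).

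The bridging adaptors were scarce and less even. Tirap, on chromosome 9 from 35184551 to 35200291, which docks at the membrane and recruits MyD88, held 16.6, 22.5, 18.4, 17.5 and 10.9 CPM in NC. In AX it held 13.6, 3.55, 13.1, 19.9 and 16.1 CPM, the low value in AX 7 resting on 44 counts. Exons of Gm39318 on the other strand overlap 9.05% of its own. For Tirap the log2 fold change was -0.38 ± 0.38 (SE), with an exact permutation p of 0.317 (n = 5 each). Without AX 7 it was -0.14, the smallest of the values with 1 library left out.

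Ticam2, on chromosome 18 from 46559155 to 46574533, which encodes the bridge between TLR4 and TRIF, held 4.58, 12.2, 5.77, 7.20 and 7.01 CPM in NC. AX values were 2.60, 7.11, 8.35, 6.96 and 13.8 CPM, so both the lowest and the highest library were AX. These rest on 30 to 190 counts, and 14.5% of the merged exons of Ticam2 overlap Tmed7 on the same strand, where reads cannot be assigned with certainty. The log2 fold change was 0.08 ± 0.41 (SE), and the exact permutation p was 0.968 (n = 5 each). It became -0.05 without NC 1 and -0.24 without AX 10. The log2 ratio of Tirap to Ticam2 was 1.26 ± 0.51 in NC and 0.75 ± 1.28 in AX (exact permutation p = 0.460, adjusted over 5 ratios 0.722, n = 5 each).

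**Figure D3:**
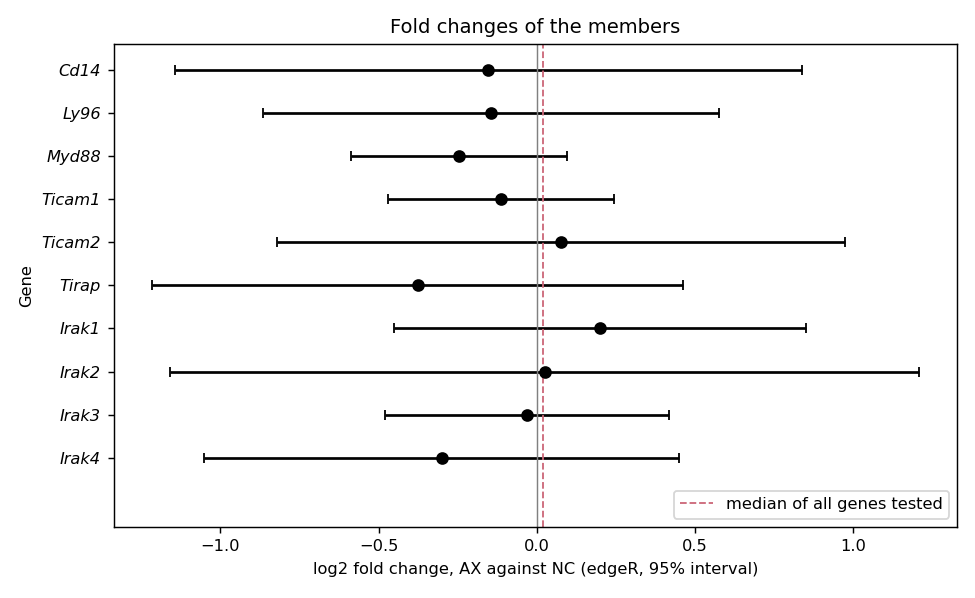
Log2 fold change of each member, AX against NC, with its 95% interval from edgeR (n = 5 each); the dashed line is the median of all genes tested, 0.02. All 10 intervals include 0, and those of Myd88 and Ticam1 are the narrowest while that of Irak2 is the widest.

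On average Irak3 and Irak2 were the more abundant IRAK genes, followed by Irak4 and then Irak1. Per length, Irak2 made up 12.5% to 59.5% and Irak3 35.3% to 72.0% of the summed level of the 4 genes, with Irak4 at 3.14% to 11.5% and Irak1 at 0.998% to 4.42%. In NC 1 Irak2, at 12.5%, was close to Irak4, at 11.4%. IRAK4 and IRAK1 are the kinases that start the signal, IRAK2 is known to sustain it, and IRAK3 to restrain it. The 250 bases before the RefSeq start sites of Irak1 and Irak2 (GRCm38.p6, the same coordinates as mm10) are shown because these were the least abundant IRAK gene and the most variable one. Irak1 is on the minus strand of chromosome X (window chrX:74023922-74024171) and Irak2 on the plus strand of chromosome 6 (window chr6:113638217-113638466). Capitals mark matches to the κB-like letters GGG, any 5 bases, CC on either strand.
Irak1: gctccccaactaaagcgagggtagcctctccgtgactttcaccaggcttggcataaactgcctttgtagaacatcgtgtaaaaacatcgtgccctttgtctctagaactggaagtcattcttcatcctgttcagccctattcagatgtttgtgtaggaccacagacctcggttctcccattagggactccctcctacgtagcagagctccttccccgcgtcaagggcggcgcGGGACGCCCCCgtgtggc
Irak2: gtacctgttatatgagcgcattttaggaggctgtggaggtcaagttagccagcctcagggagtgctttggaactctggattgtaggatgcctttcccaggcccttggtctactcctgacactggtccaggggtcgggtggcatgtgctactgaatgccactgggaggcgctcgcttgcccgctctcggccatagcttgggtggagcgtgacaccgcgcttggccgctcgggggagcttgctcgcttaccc
Those letters occurred in the Irak1 window, where overlapping matches on both strands form 1 run, and not in that of Irak2. In 45.8% of 32851 RefSeq windows of this length at least 1 match was found. TGANTCA (AP-1; 6.75% of windows), GAAA, any 2 bases, GAAA (ISRE; 2.98%) and TATAAA (12.4%) were found in neither window on either strand. TGACG (the core of the cyclic AMP response element; 17.8%) was found once, on the minus strand of the Irak1 window. A match is a description of letters, not a bound site.

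**Figure D4:**
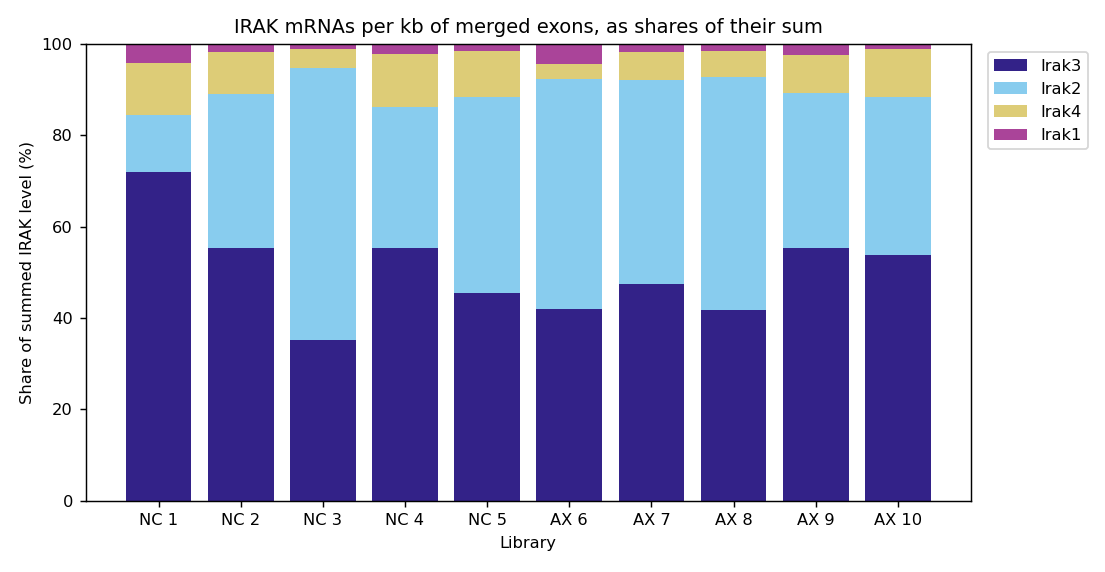
Share of each IRAK gene in the summed CPM per kilobase of the 4 genes, by library. Irak3 and Irak2 make up most of every bar; Irak2 takes 12.5% in NC 1 and 59.5% in NC 3.

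Irak2, spanning positions 113638467 to 113695026 of chromosome 6, was the most variable member. NC 1 to NC 5 held 32.0, 175, 550, 168 and 212 CPM, a 17.2-fold range that comes from 370 counts in NC 1 and 5910 in NC 3. AX 6 to AX 10 held 216, 262, 312, 169 and 196 CPM, all inside the NC range. The SD was 193 CPM in NC and 56.4 CPM in AX, around almost equal means of 227 and 231 CPM. The log2 fold change was accordingly 0.02 ± 0.54 (SE), with an interval from -1.16 to 1.21 that allows folds from 0.448 to 2.31. An exact permutation test gave p = 0.595 (n = 5 each). Its sign was not fixed: the value was 0.65 without NC 3, -0.26 without NC 1, -0.06 without NC 2, -0.08 without NC 4, -0.0031 without NC 5, -0.03 without AX 7 and -0.12 without AX 8. Other methods gave larger positive values that did not pass either, 0.49 with limma-voom, 0.38 and 0.42 with limma on log2 FPKM + 1 and + 0.1, 0.58 with the neutrophil list as covariate and 0.53 with the large peritoneal macrophage list.

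Irak3 was steadier, although it is known as a gene of the tolerant state after LPS. It lies on chromosome 10 from 120141648 to 120202130 and had 1737 to 3738 counts per library. NC values were 154, 239, 272, 250.3 and 187 CPM and AX values 151, 232, 212, 229 and 255 CPM, with NC 1 and AX 6 the lowest of their groups. The log2 fold change was -0.03 ± 0.20 (SE), from -0.48 to 0.42 (exact permutation p = 0.905, n = 5 each). It became 0.05 without NC 3, 0.0075 without NC 4 and 0.07 without AX 6. Exons of Tmbim4 on the other strand overlap 5.22% of its own.

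Irak4, the kinase that all MyD88 signals need, lies on chromosome 15 from 94543643 to 94581815. It stood at 33.2, 53.7, 44.7, 70.8 and 56.0 CPM in NC and at 15.3, 40.5, 38.9, 46.1 and 68.7 CPM in AX. AX 6 was the lowest library, and 3 of the other AX values lay between NC 1 and NC 2. The log2 fold change was -0.30 ± 0.34 (SE), from -1.05 to 0.45 (exact permutation p = 0.389, n = 5 each), and -0.09 without AX 6. Exons of Twf1 on the other strand overlap 7.87% of its own.

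Irak1 lies on chromosome X from 74013914 to 74023918 and had only 76 to 234 counts per library. NC libraries held 11.6, 10.3, 9.86, 13.2 and 8.27 CPM, and AX libraries 20.3, 10.99, 10.5, 13.1 and 6.16 CPM, again with AX 6 and AX 10 at the ends. For Irak1 the log2 fold change was 0.20 ± 0.30 (SE), from -0.45 to 0.85 (exact permutation p = 0.714, n = 5 each), and turned to -0.06 without AX 6.

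Within a library, Irak2 counts exceeded Irak1 counts by a log2 ratio of 3.93 ± 1.6 in NC and 4.31 ± 0.71 in AX (exact permutation p = 0.706, adjusted over 5 ratios 0.722, n = 5 each). Without NC 1 the difference of 0.37 became -0.25. Per length, Irak2 exceeded Irak1 by 2.95-fold in NC 1 and by 11.4-fold to 59.6-fold in the other 9 libraries. The log2 ratio of Irak3 to Irak4 was 2.11 ± 0.35 in NC and 2.49 ± 0.51 in AX, a difference of 0.38 (exact permutation p = 0.198, adjusted over 5 ratios 0.722, n = 5 each). Per length the brake exceeded Irak4 by 4.55-fold to 13.4-fold, with the largest ratio in AX 6.

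Several members deviated together in the same libraries, in libraries of both groups. AX 6 held the highest Cd14, Ticam1 and Irak1 and the lowest Ticam2, Irak3 and Irak4, whereas AX 10 held the lowest Cd14 and Irak1 and the highest Ticam2. Mitochondrial genes took the largest share of counts in AX 10, 20.1%, followed by AX 8 with 18.6% and NC 5 with 15.7%, and these were also the 3 libraries with the least Cd14. That share ran from 4.47% to 15.7% in NC and from 6.35% to 20.1% in AX. Of 13 mitochondrial genes 12 had a higher fitted value in AX, 1 had an unadjusted p under 0.05 and 0 passed. The part of this share in the levels of the members was not tested. Of 45 pairs of members, 27 had a positive and 18 a negative Pearson r of log2 CPM over the 10 libraries. By permutation 9 had an unadjusted p under 0.05, and 0 passed after Benjamini-Hochberg adjustment over the 45 pairs, for Pearson's r or Spearman's rho. Ticam2 and Irak4 gave the strongest positive value, with r = 0.84 and rho = 0.64 (permutation p = 0.004 and 0.0566, adjusted p = 0.145 and 0.425, n = 10).

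Cd14 and Ticam2 ran opposite, with r = -0.78 and rho = -0.83 (permutation p = 0.0106 and 0.00497, adjusted p = 0.145 and 0.224, n = 10). For Cd14 and Irak1 r was 0.76 and rho 0.59 (permutation p = 0.0185 and 0.0789, adjusted p = 0.145 and 0.50, n = 10). AX 6 and AX 10 were the libraries farthest from the median of Cd14 and Ticam2. Without both, r was 0.44 for Ticam2 and Irak4, -0.50 for Cd14 and Ticam2, and 0.14 for Cd14 and Irak1. Leaving out the ends of a range can by itself lower r, so these values do not show that the relations rested on them. Without AX 6 alone, r was 0.61, -0.75 and 0.71 for these pairs, and without AX 10 alone 0.82, -0.70 and 0.54. For Ticam2 and Irak4 it was 0.78 without AX 6 and NC 4, the libraries farthest from the median of Irak4. With NC 4 left out, 2 of the 45 pairs passed, Ticam2 with Irak4 (r = 0.90, permutation p = 0.00127, adjusted p = 0.0376) and Irak1 with Irak4 (r = -0.90, permutation p = 0.00167, adjusted p = 0.0376). Over all 10 libraries Irak1 and Irak4 gave r = -0.73 and rho = -0.41 (permutation p = 0.0274 and 0.2496, adjusted p = 0.176 and 0.562, n = 10). For this pair r was -0.38 without AX 6 (permutation p = 0.325), -0.69 without AX 10 (permutation p = 0.0679) and 0.03 without both. Without AX 6 and NC 4 it was -0.78, so the value depended on which libraries were left out.

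**Figure D5:**
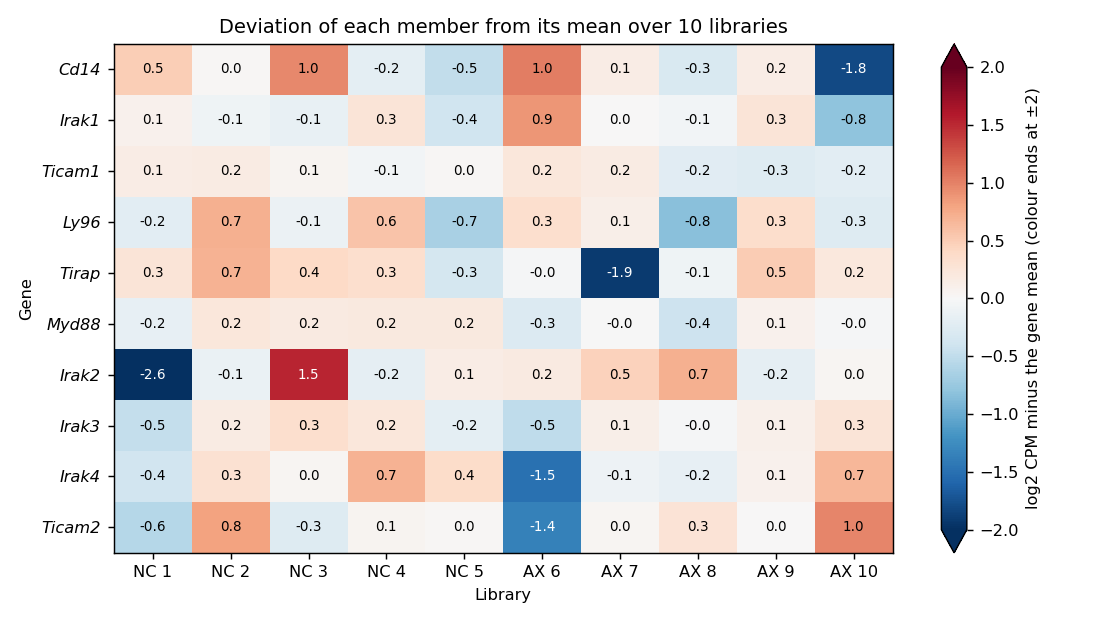
Log2 CPM of each member minus its mean over the 10 libraries, by library; red is above and blue below the mean, and the printed value is the deviation. AX 6 is high for Cd14 and Irak1 and low for Irak4 and Ticam2, AX 10 shows the reverse, and the extreme values for Irak2 are in NC 1 and for Tirap in AX 7.

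AX 6 and NC 1, which held the lowest Irak3, Irak4 and Ticam2, were also the libraries with the most mesothelial RNA. The 8 mesothelial markers summed to 85.2 to 654 CPM in NC and 86.2 to 1878 CPM in AX, 7 were tested, all 7 had a higher fitted value in AX, 0 passed, and Muc16 was at 0 in AX 9. The same libraries were highest for the 6 stromal markers (AX 6 with 2739 CPM, then NC 1 with 1112 CPM). They were also highest for the 6 gut epithelial markers (NC 1 with 910 CPM, then AX 6 with 508 CPM). NC 4 came next for the gut markers, with 406 CPM, and held the highest Irak4, at 70.8 CPM. Stromal sums ran from 217 to 1112 CPM in NC and from 307 to 2739 CPM in AX, and gut sums from 27.7 to 910 CPM and from 17.4 to 508 CPM. All 6 stromal markers had a higher and all 6 gut markers a lower fitted value in AX, none was at 0, and 0 of either list passed. Their part in the levels of these members was not tested. With both libraries left out, which was chosen after seeing the data, 0 genes were called and no member passed. The members' fold changes then ran from -0.45 to 0.17. Among them Irak1 turned to -0.03 and Irak2 to -0.23. Of the 45 pairs of members 0 passed in this setting. Here r was 0.43 for Ticam2 and Irak4, -0.73 for Cd14 and Ticam2, 0.69 for Cd14 and Irak1, and -0.33 for Irak1 and Irak4. The limit given above for leaving out the ends of a range holds here too.

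The genes whose levels followed a member most closely over the 10 libraries were named by the highest Pearson r of log2 CPM, as a description of libraries that share depth and scaling. Cd14 was followed by Ndel1 (r = 0.95), Nacc1 (0.95) and Slc15a3 (0.95), the last a transporter of endosomes that carries bacterial peptides. Myd88 was followed by Apoc2 (0.95), Ube2a (0.93) and Hcfc1 (0.93). For Irak2 they were Pou2f1 (0.97), Borcs5 (0.91) and Borcs6 (0.90), and for Irak3 they were Cyfip1 (0.98), Stat6 (0.96) and Ankrd13a (0.96). Of the 12264 genes tested, members, predicted genes (Gm numbers), Rik clones and genes of mean log2 CPM under 1 were left out of this search. These are the highest values among the rest, and no shared function or control follows from them.

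No gene of the surrounding pathway lists passed the test, or had an unadjusted p under 0.05. Of 12 Toll-like receptor genes 9 were tested, 4 with a higher and 5 with a lower fitted value in AX and a median log2 fold change of -0.01, and 0 passed. Tlr4 stood at 72.8 ± 13.6 CPM in NC and 60.7 ± 8.80 CPM in AX, a log2 fold change of -0.26 ± 0.18 (SE), close to that of Myd88. Tlr3, the one receptor that signals through TRIF alone, was near the detection limit at 1.2 ± 0.683 and 2.57 ± 1.66 CPM. Tlr2 gave 260.5 ± 59.4 against 237 ± 65.6 CPM. Tlr7 gave 14.7 ± 8.26 against 17.8 ± 6.42 CPM, with only 0.327 CPM in NC 4.

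Of 10 genes that bind LPS or fold and carry the receptors, 4 were fitted higher and 6 lower in AX (median -0.01), and 0 passed. Itgam, the integrin chain CD11b, had the largest fitted difference, -1.70 ± 0.85 (SE), through NC 3 alone at 3391 CPM. Lbp, the serum LPS-binding protein, stood at 6.78 ± 2.22 in NC and 9.89 ± 7.07 CPM in AX, and the scavenger receptor gene Cd36 at 11.3 ± 4.64 and 9.22 ± 3.89 CPM. Downstream of the IRAK kinases, 16 of 20 tested relay genes had a higher fitted value in AX (median 0.14) against 53.6% of all genes tested, and 0 passed. That median fell to 0.05 without AX 8, 0.06 without AX 10 and 0.08 without NC 1, and was 0.08 with scaling to total count alone. The members of that list with the smallest p did not share a direction: Irf3 had a log2 fold change of -0.35 ± 0.21 (SE), Peli1 -0.19 ± 0.13, Ripk1 0.72 ± 0.58 and Ube2v1 1.37 ± 0.93. Tbk1, the kinase that amlexanox inhibits, gave -0.13 ± 0.19 (SE).

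Brakes of the pathway were split, 6 higher and 9 lower of 15 tested (median -0.01), and 0 passed. Sigirr, a receptor that damps IL-1 and TLR signals, stood at 2.04 ± 0.642 in NC and 1.12 ± 0.575 CPM in AX, and the deubiquitinase gene Cyld at 43.7 ± 11.4 and 51.9 ± 9.71 CPM. Among 6 genes of the IL-1 receptor family, 5 were fitted higher and 1 lower (median 0.10), and 0 passed. With 1 library left out this median ran from 0.02 to 0.40, being 0.02 without NC 5, 0.03 without NC 1, 0.16 without NC 4, 0.21 without AX 10 and 0.40 without NC 3. The largest was Il18r1 at 6.42 ± 2.01 in NC and 10.6 ± 6.52 CPM in AX, of which AX 6 held 20.7 CPM. Of 10 tested target mRNAs of the pathway 5 were higher and 5 lower (median 0.04), and 0 passed. Ptgs2 reached 10125 CPM in AX 6 and 2947 CPM in NC 1, and Acod1, the itaconate-forming enzyme, stood at 1853 ± 499 in NC and 1539 ± 374 CPM in AX.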

How the data were processed

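Per the submitters' processing notes, HISAT2 2.0.4 and the mm10 build were used. No source names the counter, the annotation release or the strand setting. The deposited count table holds raw whole-number counts per gene. The deposited FPKM equal these counts over a fixed length per gene and the library total, and served for that length and in an alternative test. Every pair of libraries differed beyond sampling noise (chi-square over its degrees of freedom, 41.8 to 327), so all 10 were kept.

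Low-count genes were removed with filterByExpr and libraries scaled by TMM in edgeR 4.0.16 (R 4.3.3). A quasi-likelihood fit with group as its single term gave AX against NC (Benjamini-Hochberg, threshold 0.05). CPM are TMM-scaled; log2 CPM has a prior count of 2 and ratios a pseudocount of 0.5. Standard errors and 95% intervals were derived from F. Single genes and ratios were tested by exact two-sided permutation of group means in R. Correlations were tested with 100000 permutations in Python 3.11.15 with numpy 2.4.6. The fit and the permutation steps were tested on simulated data. Alternatives were other scalings, DESeq2 1.42.0, limma 3.58.1 (voom, or log2 FPKM + 1 or + 0.1), other filters, marker covariates and each library left out. Promoter sequences are from RefSeq (GRCm38.p6); 7 of 10 members matched. Members, lists and tests were chosen with earlier results of these data known. Named are all members, Tlr4, Tbk1 and up to 4 genes with the smallest p per pathway list. Also named are the 3 genes most like each of Cd14, Myd88, Irak2 and Irak3 (no predicted genes or Rik clones, mean log2 CPM at least 1). Vsig4, Adgre1 and Muc16 were named after their values were seen. The tests have 5 libraries a group and no molecular identifiers are described, so counts carry counting error and amplification error.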

Additional observations from a re-analysis of the deposited data

Results flagged for a closer look

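Myd88 in NC 1, at 211 CPM, lay apart from the other 4 NC libraries, which held 268 to 276 CPM. Its gap to the nearest of them was 0.871 of the range of the group, above the limit of 0.71 set for 5 samples. It was 1 of 20 groups of member values examined, and chance marks about 1 in 20.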

How the results depend on the processing

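No paired analysis was possible because the groups share no replicate number. In 0 of the alternatives run did a member or ratio pass. With 1 library left out, the count of genes called ran from 0 to 1 (1 without NC 3), and pairs of members passing from 0 to 2. Genes with an unadjusted p under 0.05 in edgeR, 113 of 12264 in the main fit, depended more on single libraries. They numbered 433 of 12414 without NC 1 and 381 of 12395 without AX 6. Leaving out any other library gave 99 (NC 4) to 145 (AX 7). With 1 library left out, log2 fold changes ran from -0.52 to 0.094 for Cd14, -0.29 to 0.040 for Ly96, -0.31 to -0.18 for Myd88, -0.19 to -0.07 for Ticam1 and -0.24 to 0.34 for Ticam2. They ran from -0.57 to -0.14 for Tirap, -0.060 to 0.37 for Irak1, -0.26 to 0.65 for Irak2, -0.14 to 0.073 for Irak3 and -0.55 to -0.09 for Irak4. Ratio differences ran from -0.41 to 0.17 (Cd14 to Ly96) and -0.25 to 0.84 (Irak2 to Irak1), turning sign, and from -0.23 to -0.02, -0.92 to -0.08 and 0.18 to 0.53 for Myd88 to Ticam1, Tirap to Ticam2 and Irak3 to Irak4. Other settings turned the sign for Cd14 with the macrophage list as covariate (0.019), Irak3 with the neutrophil list (0.0073), and Ticam2 with limma-voom (-0.048) and log2 FPKM + 1 (-0.020) or + 0.1 (-0.070). Leaving out NC 1 and AX 6 together turned Irak1 (-0.027), Irak2 (-0.23) and the Irak2 to Irak1 ratio (-0.023). Further values that moved over 1.5 times included -0.31 for Ly96, -0.63 for Tirap and -0.06 for Ticam1 with the macrophage list, -0.18 for Ticam1 and 0.13 for Irak1 with total-count scaling, 0.11 for Irak1 with voom and -0.46 for Irak4 on log2 FPKM + 0.1. The cause was not tested. Medians of some pathway lists turned sign with 1 library left out. They ran from -0.17 to 0.20 for Toll-like receptors, -0.10 to 0.05 for LPS binding, -0.07 to 0.06 for brakes and -0.18 to 0.20 for target mRNAs. Those of the relay (0.05 to 0.15) and the IL-1 receptor family (0.02 to 0.40) stayed above 0. Total-count scaling turned the target median to -0.016. Scaling to total count alone left 43.2% of genes with a higher value in AX, against 53.6% with TMM, with the median of all genes at -0.04; log2 FPKM + 1 gave 36.4%. Irak1 could not be fitted on FPKM, being under 1 in most libraries. The depth of Irak1, Ly96, Ticam2 and Tirap, at most 352 counts, limits their precision.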
